A study of Homo sapiens with 18 samples.

Results

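The protein 4.1 family was followed at the promoters of its 7 members, EPB41, EPB41L1, EPB41L2, EPB41L3, EPB41L4A, EPB41L4B and EPB41L5, which were chosen by name among 20136 protein-coding genes. The choice was made with earlier results of these data known, so it was not blind to them. A promoter was taken as the 1 kb on either side of the gene 5′ end in GENCODE on GRCh37. DNA methylation was measured in 3 established and untreated human cancer cell lines, namely HCT15, a colorectal carcinoma line, and DU145 and PC3, which are prostate cancer lines. Reduced representation bisulfite sequencing (RRBS) was done once per line and gives, for single CpGs, the methylated reads and all reads. Methyl-CpG binding domain sequencing (MBD-seq) was done on 15 libraries, since each of 5 capture kits (MethylMagnet, MethylCollector, MethylCollector Ultra, MethylCap and MethylMiner) was applied once to each line. All libraries of a line came from the DNA of that line alone, so no value below has a replicate culture, and a test between lines compares these libraries.

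Proteins of this family carry a FERM domain, through which they bind the inner face of the plasma membrane. EPB41 encodes the red cell protein that ties spectrin and actin filaments to membrane proteins, and EPB41L1, EPB41L2 and EPB41L3 encode its close paralogs (proteins 4.1N, 4.1G and 4.1B). EPB41L3, also called DAL-1, is known as a tumour suppressor gene whose promoter is methylated in several cancers, while EPB41L4A, EPB41L4B and EPB41L5 encode more distant FERM proteins, the last of them with a role in epithelial polarity.

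In the data, 4 of the promoters (EPB41, EPB41L2, EPB41L4B and EPB41L5) were unmethylated in all 3 lines apart from single CpGs. EPB41L3 was methylated in HCT15 and DU145 and not in PC3. EPB41L4A was methylated in HCT15 and not in DU145 or PC3. At EPB41L1 only 2 CpGs were read, which is under the 5 CpGs asked for a comparison. With a minimum of 10 reads per CpG, RRBS covered between 32 and 112 CpGs of the windows of the other 6 genes in a line.

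One property of the RRBS values touches every mean of this kind. CpGs that lie inside CCGG, the sequence cut by MspI, the usual enzyme of RRBS, read near 50% in unmethylated promoters. At EPB41L4B the 12 to 13 CpGs in CCGG averaged 52.4% in HCT15, 52.4% in DU145 and 54.9% in PC3, while the other 84 to 99 CpGs of the same window averaged 0.8%, 0.8% and 1.6%. At EPB41L2 the 8 CpGs in CCGG averaged 48.1%, 49.8% and 51.4% in the same order, against 0.7%, 0.7% and 0.3% for the other 44. The same held across the genome. Among promoters whose other CpGs were at most 5% methylated (4822 in HCT15, 4668 in DU145 and 4783 in PC3), the median of the CCGG means was 51.3%, 52.1% and 52.1%. What sets these readings was not tested. Levels below are therefore given for CpGs outside CCGG, a choice made after seeing the data, with the mean over all CpGs beside them. Leaving out CCGG did not remove every reading of this kind. In PC3 the EPB41L3 CpG 421 bp downstream of the 5′ end read 62.7%, against 6.7% at 406 bp. The one at 179 bp read 48.8%, against 5.6% at 197 bp. In DU145 the EPB41L4A CpG at -7 bp read 51.2%, against 0.0% at -2 bp. Such CpGs are kept in the means below, and whether their readings reflect methylation was not tested. A spread given as SD is over the CpGs of a window, which share a library and are not replicates.

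**Figure D1:**
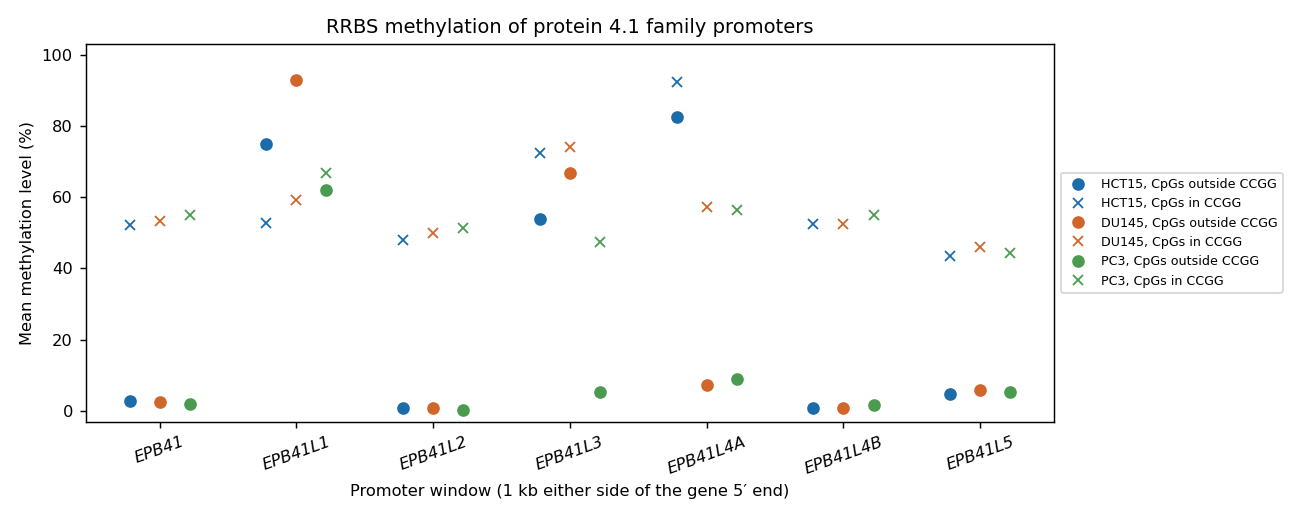
Mean RRBS methylation level (%) of the 7 promoter windows in HCT15, DU145 and PC3, with filled circles for CpGs outside CCGG and crosses for CpGs in CCGG. In the 4 promoters that were low in all 3 lines the circles lie between 0.3% and 5.8% and the crosses between 43.6% and 54.9%, and the EPB41L1 points rest on 1 CpG each.

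The following 4 stretches of 300 bases, read from GRCh37 on the strand of the gene and clear of annotated untranslated regions, show the letters behind these values. Each is the stretch of its window with the most CpGs outside CCGG read in all 3 lines, and capitals mark every CG read at least 10 times in all 3 lines. They stand for a promoter methylated in 2 lines, a further start of the same gene, a promoter methylated in 1 line and a promoter unmethylated in all.
EPB41L3, intron 1, minus strand of chr18:5629741-5630040: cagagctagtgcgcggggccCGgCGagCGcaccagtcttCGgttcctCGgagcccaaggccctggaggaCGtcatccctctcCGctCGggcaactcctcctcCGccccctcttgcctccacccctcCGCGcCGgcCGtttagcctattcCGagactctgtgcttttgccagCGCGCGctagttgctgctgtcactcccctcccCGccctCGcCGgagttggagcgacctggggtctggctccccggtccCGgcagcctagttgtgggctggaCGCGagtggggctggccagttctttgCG
EPB41L3, further start, minus strand of chr18:5543568-5543867: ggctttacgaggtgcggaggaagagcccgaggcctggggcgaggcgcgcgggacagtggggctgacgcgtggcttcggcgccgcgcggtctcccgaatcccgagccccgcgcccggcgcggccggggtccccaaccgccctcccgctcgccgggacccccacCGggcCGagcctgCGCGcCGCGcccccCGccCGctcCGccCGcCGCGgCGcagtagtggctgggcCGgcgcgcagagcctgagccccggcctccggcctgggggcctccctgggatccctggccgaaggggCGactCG
EPB41L4A, upstream of the 5′ end and its first bases, minus strand of chr5:111754975-111755274: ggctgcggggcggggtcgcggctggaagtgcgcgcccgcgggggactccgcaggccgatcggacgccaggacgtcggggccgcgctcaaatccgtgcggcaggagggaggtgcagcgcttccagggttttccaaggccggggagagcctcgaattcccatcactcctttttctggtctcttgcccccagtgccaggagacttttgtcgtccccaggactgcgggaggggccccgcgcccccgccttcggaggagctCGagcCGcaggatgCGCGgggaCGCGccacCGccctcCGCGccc
EPB41L4B, coding part of exon 1, minus strand of chr9:112082427-112082726: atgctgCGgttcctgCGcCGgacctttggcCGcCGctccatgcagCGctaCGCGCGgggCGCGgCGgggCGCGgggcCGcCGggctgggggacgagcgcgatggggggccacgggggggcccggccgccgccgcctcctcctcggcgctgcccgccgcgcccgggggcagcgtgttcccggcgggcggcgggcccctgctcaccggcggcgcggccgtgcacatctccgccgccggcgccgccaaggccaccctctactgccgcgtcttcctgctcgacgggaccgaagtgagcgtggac
In the first stretch, 24 of 28 CpGs were read in all lines and 4 of these lay in CCGG. The other CpGs of that stretch averaged 75.7% ± 28.0 (SD) in HCT15, 62.9% ± 12.9 in DU145 and 4.4% ± 3.9 in PC3. In the second stretch, 86390 bp further into the gene, 16 of 47 CpGs were read, with means of 91.4% ± 17.4, 62.4% ± 14.5 and 2.5% ± 2.8 in the same order. In the EPB41L4A stretch, 9 of 36 CpGs were read, with means of 98.8% ± 2.1, 6.2% ± 16.9 and 10.7% ± 15.8. In the EPB41L4B stretch, 16 of 51 CpGs were read and the means were 1.0% ± 1.7, 0.9% ± 1.0 and 1.4% ± 1.8.

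The promoters differ in sequence. The windows of EPB41 (109 CpGs), EPB41L2 (149), EPB41L3 (124), EPB41L4A (189), EPB41L4B (194) and EPB41L5 (140) all held more CpGs than the median protein-coding promoter (90), and only EPB41L1 held fewer (67). CCGG was found 14 to 27 times per window, against a median of 10, and 93.6% of all promoters held it at least once (CCGG is its own reverse complement, so a single search covers both strands). EPB41L4A, methylated in HCT15, and EPB41L4B, unmethylated in all lines, were alike in CpG number (more CpGs than 95.6% and 96.2% of promoters) and in the ratio of observed to expected CpGs (0.901 and 0.877).

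EPB41 (chromosome 1, 29213603 to 29446558, plus strand) encodes the red cell founder of the family. Outside CCGG its promoter averaged 2.7% ± 8.1 (SD, 39 CpGs) in HCT15, 2.5% ± 11.4 (34 CpGs) in DU145 and 2.0% ± 6.9 (39 CpGs) in PC3. Over all CpGs the means were 16.5%, 17.3% and 16.7%. Another CpG-rich start 27453 bp downstream gave 2.7% ± 14.3, 2.6% ± 13.8 and 2.8% ± 12.2 over the same 49 CpGs. Over the 34 CpGs read in all lines, the means at the first start were 2.0%, 2.5% and 0.8%.

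EPB41L2 (chromosome 6, 131160487 to 131384462, minus strand), the broadly expressed 4.1G, was low at every CpG outside CCGG. The highest of its 44 CpGs outside CCGG read 9.1% in HCT15, 7.7% in DU145 and 5.6% in PC3. Its means over all CpGs were 8.0%, 8.2% and 8.1%. EPB41L4B (chromosome 9, 111934254 to 112083339, minus strand) had no CpG outside CCGG above 6.9% in HCT15, 5.4% in DU145 or 20% in PC3. Its means over all CpGs were 7.3%, 6.8% and 7.9%.

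EPB41L5 (chromosome 2, 120770653 to 120936695, plus strand) was low as a whole but held CpGs that read high in every line. Outside CCGG its means were 4.8% ± 18.5 (54 CpGs), 5.8% ± 19.4 (45 CpGs) and 5.2% ± 19.1 (54 CpGs) in HCT15, DU145 and PC3, and 10.4%, 11.9% and 10.8% over all CpGs. The CpG 364 bp downstream of the 5′ end was methylated in 75 of 84 reads in HCT15, 110 of 126 in DU145 and 67 of 74 in PC3. The CpG at 720 bp was methylated in 29 of 30, 47 of 51 and 35 of 36 reads. A CpG at 552 bp was intermediate, with 44.4%, 41.7% and 53.3%. All other CpGs outside CCGG read at most 20% in all 3 lines. Of these, the CpG at 360 bp read 0.0% in each line, and the CpG at 666 bp read 0.0%, 2.1% and 2.9%. Whether the readings at 364, 552 and 720 bp reflect methylation was not tested.

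EPB41L1 (chromosome 20, 34679426 to 34820721, plus strand), the neuronal 4.1N, was read at 2 CpGs near the 2 ends of its window. The CpG at -968 bp (upstream) was methylated in 9 of 12 reads in HCT15, 13 of 14 in DU145 and 13 of 21 in PC3. The other, 1000 bp downstream, lies in CCGG and read 52.8%, 59.3% and 66.7%. Most transcripts of the gene start elsewhere in the annotation. Around a start 1176 bp downstream, used by 8 transcripts, 30 CpGs outside CCGG were read in all lines and averaged 3.1% ± 13.9, 2.8% ± 11.7 and 3.3% ± 12.2. Around a start at 63236 bp, used by 3 transcripts, 13 CpGs averaged 32.6% ± 35.0 in HCT15, 48.1% ± 38.3 in DU145 and 9.5% ± 12.1 in PC3.

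EPB41L3 (chromosome 18, 5392380 to 5630699, minus strand) was methylated in HCT15 and DU145. Outside CCGG it averaged 54.0% ± 36.1 (49 CpGs) in HCT15, 66.9% ± 15.9 (54 CpGs) in DU145 and 5.4% ± 10.6 (54 CpGs) in PC3, and 57.4%, 68.3% and 13.0% over all CpGs. Pooled over all its reads, HCT15 had 53.7% (Wilson 95% interval 51.3 to 56.1). DU145 had 68.4% (67.1 to 69.6), and PC3 had 13.6% (12.7 to 14.7). These intervals cover counting error only, and since 1 read can span several CpGs they are too narrow even for that. In DU145, 0 of the 54 CpGs outside CCGG read at most 20% and 13 read at least 80%. In PC3, 52 of 54 read at most 20%.

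In HCT15 the methylation of EPB41L3 was not even along the promoter. In the first 250 bp downstream of the 5′ end, HCT15 averaged 9.9% ± 17.5 (13 CpGs), DU145 70.0% ± 16.7 (13 CpGs) and PC3 5.2% ± 12.7 (14 CpGs). In the next 250 bp HCT15 averaged 59.5% ± 23.1 and DU145 67.8% ± 15.2. Between 500 and 750 bp HCT15 reached 84.0% ± 16.3, above DU145 with 62.8% ± 13.9, and PC3 stayed at 3.8% ± 2.5 (10 CpGs in each line). Between 750 and 1000 bp HCT15 was uneven, with CpGs from 10.0% to 100% around a mean of 69.6% ± 31.9, against 60.2% ± 14.5 in DU145 and 4.4% ± 4.6 in PC3 (13 CpGs in each line). HCT15 was therefore close to PC3 next to the 5′ end, and its mean was above that of DU145 by more than the SD over CpGs between 500 and 750 bp alone. The CpG at 151 bp shows the first pattern, with 2 of 66 methylated reads in HCT15, 138 of 168 in DU145 and 2 of 98 in PC3. The CpG at 699 bp shows the second, with 11 of 11, 31 of 40 and 3 of 45. In the 1 kb upstream, no CpG outside CCGG was covered in HCT15, and 4 were covered in DU145 (86.0% ± 11.8) and PC3 (1.8% ± 3.6).

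**Figure D2:**
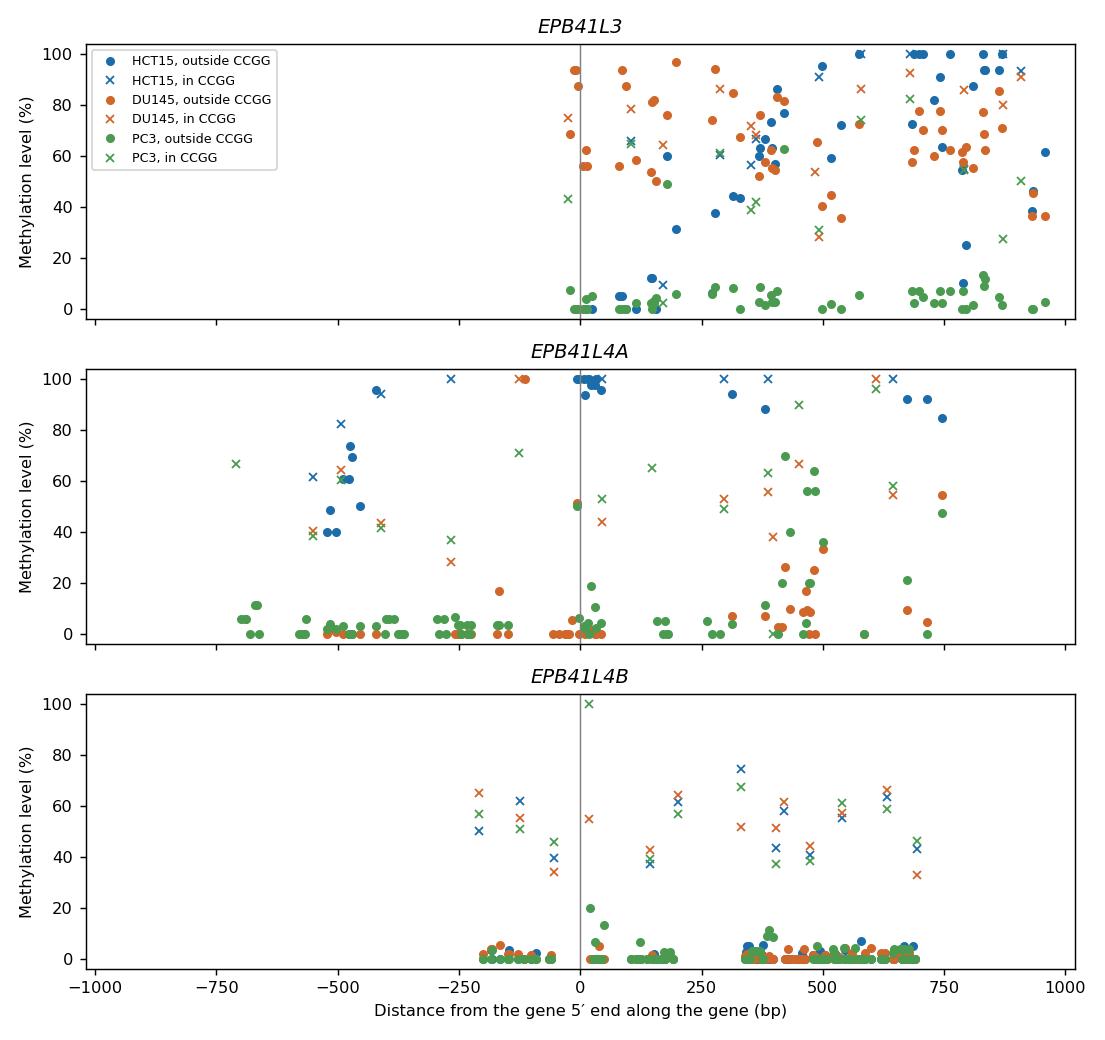
RRBS methylation level (%) of single CpGs against the distance (bp) from the gene 5′ end for EPB41L3, EPB41L4A and EPB41L4B, coloured by cell line, with circles for CpGs outside CCGG and crosses for CpGs in CCGG. HCT15 rises from 9.9% in the first 250 bp of EPB41L3 to 84.0% between 500 and 750 bp, HCT15 is high across EPB41L4A, and the crosses of EPB41L4B lie far above its circles in all 3 lines.

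EPB41L3 has further annotated starts, and they did not all share this pattern. Around the start 1709 bp downstream, 54 CpGs outside CCGG averaged 49.8% ± 28.7 in HCT15, 67.8% ± 16.1 in DU145 and 9.0% ± 12.4 in PC3. Around a CpG-rich start 86390 bp downstream, used by 4 transcripts, the means of 33 CpGs were 87.7% ± 21.5, 71.2% ± 18.7 and 5.1% ± 4.5. At 141330 bp all lines were high, with 91.9% ± 7.8, 98.2% ± 2.1 and 88.9% ± 5.8 (14 CpGs). At 210494 bp, with 5 CpGs, HCT15 had the lowest mean (47.3% ± 33.5), below DU145 (94.7% ± 2.7) and PC3 (75.2% ± 6.7). At 231134 bp the means were 64.7% ± 32.8, 66.4% ± 25.3 and 54.1% ± 24.1 (9 CpGs), differences within the SD over CpGs. PC3 was thus low around the CpG-rich starts (124 to 181 CpGs in the window) and methylated around the CpG-poor starts given here (20 to 35 CpGs). The remaining CpG-poor starts had fewer than 5 CpGs read in all lines and are not described.

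**Figure D3:**
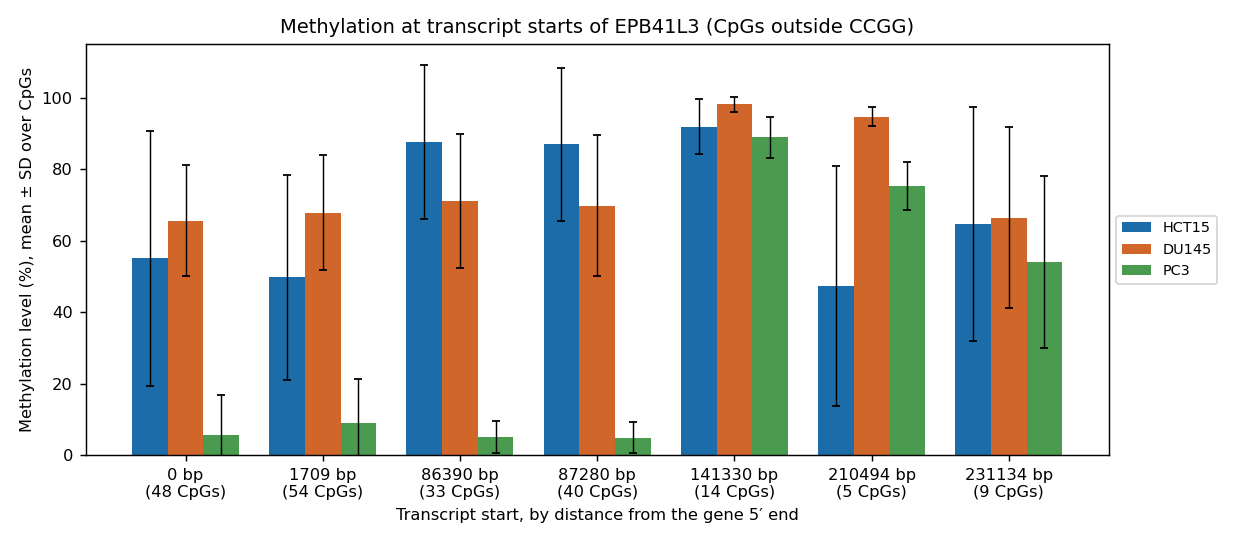
Mean RRBS methylation level (%) of CpGs outside CCGG, read in all 3 lines, within 1 kb of 7 annotated transcript starts of EPB41L3, with bars for HCT15, DU145 and PC3 and error bars of 1 SD over CpGs. PC3 lies between 4.9% and 9.0% at the first 4 starts and between 54.1% and 88.9% at the last 3, and the windows at 86390 and 87280 bp overlap.

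EPB41L4A (chromosome 5, 111478138 to 111755010, minus strand) showed the largest differences of the family. Its window also holds the 5′ end of the divergent long non-coding RNA EPB41L4A-DT, at -270 bp. Outside CCGG it averaged 82.4% ± 21 (24 CpGs) in HCT15, 7.3% ± 17.3 (55 CpGs) in DU145 and 8.8% ± 15.9 (80 CpGs) in PC3. The means over all CpGs were 84.8%, 16.3% and 15.9%. In HCT15, 0 of the 24 CpGs read at most 20% and 16 read at least 80%. The level in HCT15 was 98.2% ± 2.3 in the first 250 bp downstream (8 CpGs), where DU145 had 0.6% ± 0.6 (8 CpGs) and PC3 4.2% ± 5.2 (13 CpGs). It fell away from the 5′ end on the side of EPB41L4A-DT, with 68.5% ± 15.7 between 250 and 500 bp upstream (6 CpGs) and 42.9% ± 5.0 beyond 500 bp (3 CpGs). PC3 was not at 0 throughout, since its 16 CpGs between 250 and 500 bp downstream ranged from 0% to 70.0% with a mean of 23.1% ± 25.4, against 9.4% ± 8.5 in DU145 (13 CpGs).

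Differences between lines were next computed over CpGs read in both lines and set beside all protein-coding promoters. EPB41L4A was 68.5 points higher in HCT15 than in DU145 (32 CpGs), a size reached in either direction by 2.68% of promoters, and 66.1 points higher than in PC3, reached by 3.93%. EPB41L3 was 55.4 points higher in DU145 than in PC3 (65 CpGs), reached by 1.67% of promoters, and 43.9 points higher in HCT15 than in PC3 (60 CpGs), reached by 8.43%. Between HCT15 and DU145, EPB41L3 differed by -9.1 points. The differences of EPB41, EPB41L2, EPB41L4B and EPB41L5 were at most 1.0 point in any pair. Without the CpGs in CCGG, EPB41L4A differed by 76.5 and 74.0 points and EPB41L3 by 61.6 and 48.2 points, and the same promoters passed.

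By a threshold of 25 points, 1 of the 6 promoters compared was higher in HCT15 than in DU145, where 12.3% of 13691 promoters were, and 0 were higher in DU145 (1.56% of promoters). Against PC3, 2 of 6 were higher in HCT15 (12.5% of 13114 promoters) and 0 were lower (1.61%). Between the prostate lines, 1 of 6 was higher in DU145 than in PC3 (4.4% of 13024 promoters) and 0 were higher in PC3 (3.25%). With 6 promoters compared, nothing is read from these counts. Within 500 bp of the 5′ end, EPB41L3 passed between HCT15 and DU145 as well, with HCT15 lower by 28.5 points.

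CpG by CpG, Fisher's exact test was used on methylated and unmethylated reads, with Benjamini-Hochberg adjustment over all 1799022, 1789012 and 1875371 CpGs of the files in the 3 pairs, and a CpG was called at an adjusted p under 0.05 and a difference of at least 25 points. At EPB41L4A, 29 of 32 CpGs were called higher in HCT15 than in DU145, and 28 of 32 higher than in PC3. At EPB41L3, 58 of 65 were called higher in DU145 than in PC3 and 36 of 60 higher in HCT15 than in PC3. Between HCT15 and DU145, 6 CpGs of EPB41L3 were called higher in HCT15 and 18 lower. In all promoters, 12.2% of CpGs were called higher in HCT15 than in DU145 and 2.23% lower, 12.3% higher and 2.25% lower than in PC3, and 5.47% higher and 4.27% lower in DU145 than in PC3. Among the 5 other genes, 3, 4 and 3 CpGs in all were called in the pairs HCT15 and DU145, HCT15 and PC3, and DU145 and PC3, besides 3 at EPB41L4A in the last, all higher in PC3. Of the calls in these 5 genes only 1 lay outside CCGG, at EPB41, higher in DU145 than in PC3. The tests compare reads of 2 libraries. Some reads may be counted more than once, since the CpG of EPB41L3 at 151 bp had 66, 168 and 98 reads in the 3 lines, exactly 2 times the 33, 84 and 49 reads at 157 bp, and the part of this in the calls was not tested.

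MBD-seq was read in the same windows. Enrichment is the mean depth in the window divided by the mean depth of the library, and fragments are counted as rises of the depth. The libraries held between 10040 and 7344098 fragments, so a window holds few or none in most of them. At CpGs methylated in a single line by RRBS, 12 of the 15 libraries had their highest depth over CpGs of their own line, and the 3 MethylMiner libraries did not. Results that rest on MethylMiner are therefore also given without it.

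At EPB41L3 the MethylCap libraries, the deepest of the remaining kits, held 18 fragments for HCT15 (enrichment 6.87) and 13 for DU145 (enrichment 23.4), whereas PC3 had 0. Per 1000000 fragments of the library, HCT15 held 4.63 (exact Poisson 95% interval 2.74 to 7.32). DU145 held 15.8 on this scale (8.4 to 27.0), and the upper bound for PC3 was 3.88. MethylCollector held 3, 0 and 0 fragments, MethylCollector Ultra 5, 0 and 3, and MethylMagnet 1, 1 and 1, in the order HCT15, DU145, PC3. MethylMiner held 12, 5 and 4, with enrichments of 2.34, 2.62 and 3.19. With MethylCap the intervals of DU145 and PC3 did not overlap, while those of HCT15 and PC3 did. With MethylCollector Ultra the enrichment of PC3 (8.0) was near that of HCT15 (9.81), and the counting intervals of the 3 MethylMiner libraries overlapped. The single MethylMagnet fragment of DU145 gave an enrichment of 158 because that library holds 10040 fragments, and per 1000000 fragments it was 99.6 (2.52 to 555).

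Along EPB41L3, MethylCap depth in HCT15 and DU145 was highest in the 500 bp farthest downstream. Between 500 and 1000 bp downstream its enrichment was 20.6 in HCT15 (15 fragments) and 63.9 in DU145 (9 fragments). Between 0 and 500 bp it was 6.84 in HCT15 (6 fragments) and 8.67 in DU145 (1 fragment). In the 1 kb upstream, HCT15 had 0 fragments, while DU145 had enrichments of 14.0 within 500 bp of the 5′ end (3 fragments) and 7.02 beyond (1 fragment). PC3 had 0 fragments throughout. RRBS outside CCGG was also higher between 500 and 1000 bp than between 0 and 500 bp in HCT15 (75.9% against 34.7%), but not in DU145 (61.3% against 68.9%), and it read no CpG beyond 500 bp upstream. The window of the start 1709 bp downstream overlaps this one. There MethylCap held 24, 15 and 1 fragments in HCT15, DU145 and PC3. In the same order MethylCollector held 3, 3 and 0 and MethylCollector Ultra 4, 3 and 3. MethylMagnet held 2, 2 and 1, and MethylMiner 19, 9 and 7. At the start 86390 bp downstream, in the order HCT15, DU145, PC3, MethylCollector Ultra held 10, 0 and 0 fragments, MethylCap 9, 1 and 0, MethylCollector 5, 1 and 0, MethylMagnet 2, 0 and 2, and MethylMiner 3, 5 and 6. The 0 of DU145 with MethylCollector Ultra comes from a library of 30336 fragments, against 652800 in HCT15. The MethylCap library of DU145 is deeper (823586 fragments), and its 1 fragment gave an enrichment of 1.15. RRBS outside CCGG averaged 71.2% in DU145 around this start, and what sets the low MethylCap depth was not tested.

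At EPB41L4A every kit held fragments in HCT15. In the order HCT15, DU145, PC3, the MethylCap libraries held 20, 0 and 1 fragments and the MethylCollector Ultra libraries 16, 0 and 3. The counts were 12, 0 and 0 with MethylCollector, 1, 0 and 1 with MethylMagnet, and 12, 10 and 2 with MethylMiner. Per 1000000 fragments of the library, MethylCollector Ultra held 24.5 in HCT15 (exact Poisson 95% interval 14.0 to 39.8) and 5.18 in PC3 (1.07 to 15.1). MethylCap held 5.15 in HCT15 (3.14 to 7.95) and 1.05 in PC3 (0.0266 to 5.86). For DU145 the upper bound was 4.48 with MethylCap and between 122 and 367 with the shallower MethylCollector Ultra, MethylCollector and MethylMagnet libraries, so its counts of 0 with those 3 kits say little. The enrichment in HCT15 was highest with MethylCollector (72.1), followed by MethylCollector Ultra (34.7), MethylMagnet (21.1) and MethylCap (6.71), and lowest with MethylMiner (1.87). In DU145 the first 4 were at 0 and MethylMiner at 4.91. In HCT15, MethylCap depth covered the whole window, with enrichments of 9.29, 7.07, 5.56 and 4.91 in the successive 500-bp steps from 1 kb upstream to 1 kb downstream.

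**Figure D4:**
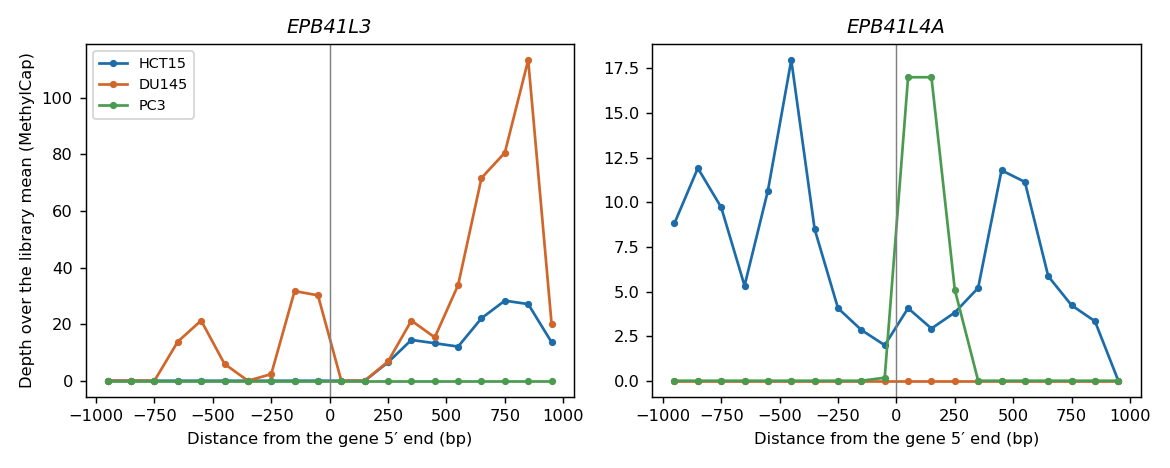
MethylCap depth over the library mean in 100-bp steps against the distance (bp) from the 5′ end of EPB41L3 and EPB41L4A, 1 line per cell line and 1 library each. PC3 has 0 fragments across EPB41L3 and DU145 has 0 across EPB41L4A, where HCT15 stays between enrichments of 4.91 and 9.29 in 500-bp steps.

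The 4 promoters with low RRBS levels in all 3 lines were nearly empty outside MethylMiner. EPB41L4B held 0 fragments in all 12 libraries of the other kits and 10, 5 and 3 in the MethylMiner libraries of HCT15, DU145 and PC3. EPB41L2 held 1 fragment in those 12 libraries, EPB41 held 6 and EPB41L5 held 7, of which 6 were in MethylCap of HCT15. Over the 6 genes with at least 5 CpGs outside CCGG read, 3 promoters in a line averaged 54.0% to 82.4% by RRBS and 15 averaged 0.3% to 8.8%. MethylCap held 13 to 20 fragments in the former and 0 to 6 in the latter. MethylCollector held 0 to 12 in the former and 0 in the latter, and MethylMagnet 1 and 0 to 1. These counts pool lines whose libraries of a kit differ in depth. In fragments the 2 groups thus met at 0 with MethylCollector and at 1 with MethylMagnet. With MethylCollector Ultra they overlapped more widely, with 0 to 16 fragments (enrichments of 0 to 34.7) in the former and 0 to 3 (0 to 9.26) in the latter. The highest MethylCollector Ultra values in the latter were those of EPB41L4A (9.26) and EPB41L3 (8.0) in PC3. MethylMiner held 5 to 12 in the former and 0 to 14 in the latter, with a median enrichment of 2.34 against 1.92. At EPB41L1, PC3 had fragments from 4 kits, with enrichments of 15.9 for MethylCollector (1 fragment), 5.89 for MethylCollector Ultra (2 fragments), 3.37 for MethylCap (2 fragments) and 2.24 for MethylMiner (3 fragments), whereas HCT15 and DU145 had fragments from MethylCap (1 each) and MethylMiner (10 and 6). In the overlapping window of the start 1176 bp downstream, MethylCap held 1, 3 and 5 fragments in HCT15, DU145 and PC3, and MethylMiner 15, 10 and 13. There the PC3 enrichments were 9.18 with MethylCap and 9.8 with MethylMiner. RRBS outside CCGG averaged 3.3% in PC3, but over only 30 of the 200 CpGs of that window.

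**Figure D5:**
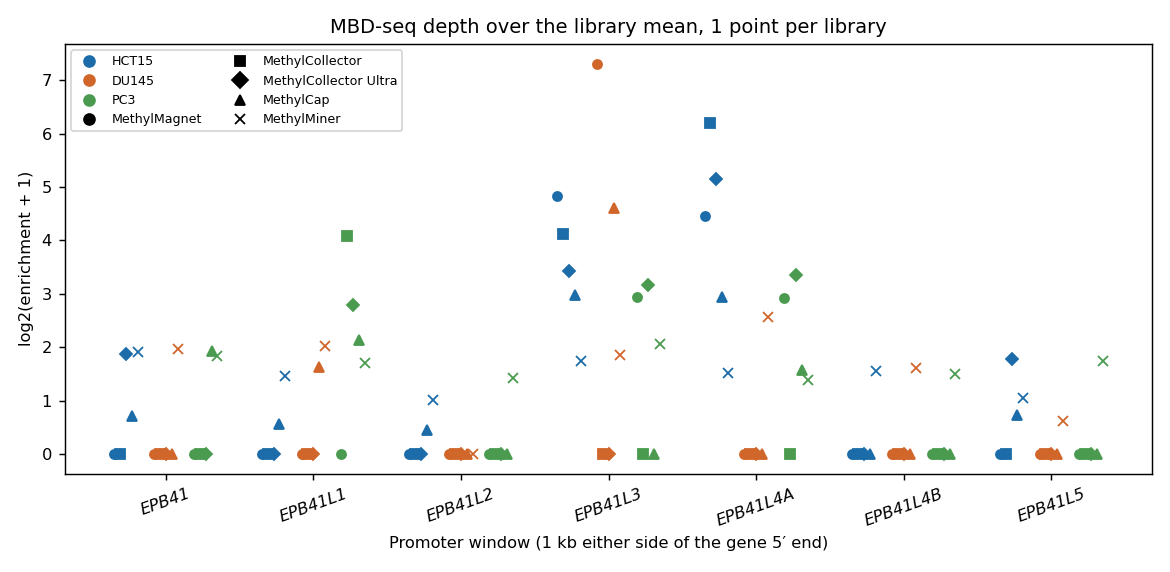
MBD-seq enrichment on the scale log2(enrichment + 1) in the 7 promoter windows, 1 point per library, coloured by cell line and shaped by kit. All 5 HCT15 points of EPB41L4A lie above 0, whereas in DU145 only the MethylMiner point does, and EPB41L4B has points above 0 for MethylMiner alone.

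Lines were compared over the 15 libraries by limma on log2(enrichment + 1), with kit as a block, across 19825 promoters. None of the 7 genes was called in any pair at an adjusted p under 0.05, and in each pair 0% of promoters were called in either direction. At an unadjusted p under 0.05, limma gave 2397 promoters between HCT15 and DU145, 1919 between HCT15 and PC3 and 1687 between DU145 and PC3. EPB41L4A was 3.54 ± 1.05 (SE) higher in HCT15 than in DU145 on this scale (limma adjusted p = 0.215) and 2.21 ± 1.05 higher than in PC3 (adjusted p = 0.519), where the medians of all promoters were 0.226 and 0.057. EPB41L3 differed by 0.67 ± 1.19 between HCT15 and DU145, by 1.79 ± 1.19 between HCT15 and PC3 and by 1.12 ± 1.19 between DU145 and PC3. The last of these ranged from 0.25 (without MethylCap) to 2.19 (without MethylCollector Ultra) over the kits left out, with 0.31 without MethylMagnet, and was 3.64 within 2 kb. EPB41L1 was lower in HCT15 than in PC3 by -1.73 ± 0.67 (limma adjusted p = 0.47). An exact permutation of the lines within kits over 7776 arrangements, two-sided and unadjusted over the 7 genes, gave p = 0.0262 for EPB41L4A, 0.0556 for EPB41L1 and 0.352 for EPB41L3, with 0.000772 as the smallest possible. With library weights, limma called EPB41L4A between HCT15 and DU145 (4.19, adjusted p = 0.0245) among 1027 promoters. In simulated libraries of this depth, limma between DU145 and PC3 called 10% of 200 promoters raised 16-fold, out of 19409 tested, so a missed call here says little. The simulation had no differences between kits and no spread beyond Poisson counting, so the 10% is not the rate for the real libraries.

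Another 3 lists of genes, tied to the family, were described in the same RRBS windows, with differences over all CpGs. Of the FERM relatives, 11 of 14 genes could be compared between HCT15 and DU145 and 10 in the other pairs. FRMD4B, a FERM domain scaffold gene, was the 1 gene of this list past 25 points, in all 3 pairs, where 12.3%, 12.5% and 4.4% of all promoters were higher in the first line of HCT15 and DU145, HCT15 and PC3, and DU145 and PC3. It had 95.2% in HCT15 and 15.0% in PC3 (95.3% and 5.9% outside CCGG) and 63.9% in DU145. The median differences of the list were 1.33, 0.78 and -0.08 points for HCT15 minus DU145, HCT15 minus PC3 and DU145 minus PC3, against -0.15, 0.02 and 0.14 points over all promoters. With 8 to 11 genes compared per list, nothing is read from these counts.

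Of the membrane skeleton partners, 11 of 16 could be compared, and 3, 4 and 1 of them were at least 25 points higher in the first line of these pairs, with none in the other direction, beside the same 12.3%, 12.5% and 4.4% of all promoters. ADD2, which encodes an adducin subunit, had 86.5% in HCT15 against 9.4% in DU145 and 13.1% in PC3. SPTBN4, a beta spectrin gene, had 79.7% against 14.7% and 17.3%. GYPC, the gene of glycophorin C, a membrane partner of protein 4.1, had 98.5% in HCT15 and 90.5% in DU145 against 35.5% in PC3. ANK1, the erythroid ankyrin gene, named here after its values were seen, made up the count with 96.1% in HCT15 against 61.6% in DU145. The list's median differences were -0.99, -0.75 and 0.17 points. Of the adhesion and polarity partners, 8 of 10 could be compared, with 1, 2 and 0 past the threshold (against 12.3%, 12.5% and 4.4% of all promoters) and medians of 5.65, 7.12 and 3.6 points. The 2 genes were CADM2 (in order of HCT15, DU145 and PC3, 90.9%, 27.7% and 12.5%) and CADM3 (73.9% in HCT15 and 28.6% in PC3), both of a family of cell adhesion molecules that bind protein 4.1 paralogs. GYPC and FRMD4B shared with EPB41L3 a higher level in both HCT15 and DU145 than in PC3, and ADD2, SPTBN4 and CADM2 shared with EPB41L4A a high level in HCT15 alone. These genes were named for their large differences, from lists chosen with earlier results of these data known. The share of all promoters with either pattern was not counted, so no link to the family is read from these likenesses.

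Among 9095 promoters with at least 20 CpGs read in each line, the 3 nearest to EPB41L3 over the 3 levels were PLPPR1 (60.0% in HCT15, 66.6% in DU145 and 18.2% in PC3, a Euclidean distance of 6.0 points), PRAC2 (9.32 points) and DACT2 (10.18 points). The nearest to EPB41L4A, a search added after its values were seen, were VSTM2L (86.5%, 18.1% and 15.3%, 2.5 points), LRP2 (2.86 points) and SLFN11 (2.87 points). These are likenesses of 3 values over all CpGs, with no test.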

How the data were processed

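RRBS of 3 libraries and MBD-seq of 15 libraries were analysed. The RRBS files hold, for each CpG, 2 counts made by the authors (reads called methylated and reads in total, summed over strands, above a minimum coverage), and their aligner is not given in the sources used here. The MBD-seq files hold a deposited signal, namely the depth of uniquely mapped, non-duplicate fragments (Bowtie, hg19, per the submitters' processing notes), unscaled, in runs along the genome. Start positions of the runs appear to be counted from 0 and were used as deposited, a shift of 1 bp.

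The 7 genes and the 3 gene lists were chosen with earlier results of these data known. Windows are 1000 bp either side of the gene 5′ end in GENCODE 44 on GRCh37, the build of the files. CpGs with at least 10 reads were used, and promoters with at least 5 such CpGs in both lines were compared. The depth was divided by its mean over chromosomes 1 to 22, X and Y, and a pseudocount of 1 was added before log2. The named genes are all 7 members, up to 3 genes per list with the largest difference past 25 points, and the 3 promoters nearest to EPB41L3. CpGs in CCGG were left out as an alternative chosen after seeing the data. Transcript starts within 500 bp were joined. The only RRBS library of a line gives no replicate, and PCR reads carry no molecular identifiers, so intervals cover counting error only. Fisher's test, the fragment counts and limma (for DU145 against PC3) were checked on simulated data. Software was limma 3.58.1 under R 4.3.3 and, under Python 3.11.15, numba 0.67.0, scipy 1.17.1, pandas 2.3.3, numpy 2.4.6, matplotlib 3.10.9 and pysam 0.24.0.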

Additional observations from a re-analysis of the deposited data

Results flagged for a closer look

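Over the 5 libraries of a line, a library was singled out where its gap to the nearest other made up most of the group's range (Dixon's critical value of 0.71 for 5 samples). This was met in 10 of the 20 groups of 5 with any signal. For continuous values of like samples chance flags about 1 in 20 groups, a rate that does not apply where 4 libraries are at 0, since any fragment in the remaining one then meets the criterion. In 9 of the 10 the library was MethylMiner, and its enrichment was 2.89 at EPB41 in DU145, 1.77 at EPB41L1 in HCT15, 1.67 at EPB41L2 in PC3, 4.91 at EPB41L4A in DU145, 1.92, 2.06 and 1.84 at EPB41L4B in HCT15, DU145 and PC3, and 0.534 and 2.36 at EPB41L5 in DU145 and PC3. In 8 of these 9 groups the other 4 libraries were at 0. The remaining one was MethylMagnet at EPB41L3 in DU145, with an enrichment of 158 from 1 fragment, where the next library had 23.4.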

How the results depend on the processing

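Of 380 values recomputed under alternatives for 34 results, 365 kept their direction and their side of the threshold (or moved by less than their limit). Within 500 bp of the 5′ end, 2 promoters differed between HCT15 and DU145, with EPB41L3 at -28.5 points, and the CpGs called were 35 between HCT15 and PC3 (68 within 1 kb) and 38 between DU145 and PC3 (64 within 1 kb). Within 2 kb, 122 were called in the last pair. With a coverage of at least 20, 42 were called between HCT15 and PC3. Leaving out the CpGs in CCGG gave 43, 55 and 56 called CpGs, against 56, 68 and 64. For MBD-seq, library weights called 1 gene between HCT15 and DU145 (1 between any lines), EPB41L4A at 4.19, and the exact permutation within kits passed 1. The uncalled difference of EPB41L3 between HCT15 and DU145 (0.67) turned to -0.16 with a pseudocount of 10, -0.6 within 500 bp, -1.75 within 2 kb, -0.2 without MethylCollector and -0.02 without MethylCollector Ultra, and ranged from -0.2 to 1.45 over the 5 kits left out. Leaving out any kit called 0 genes. The cause was not tested. No paired analysis was possible because RRBS has 1 library per line, and for MBD-seq the kit block is part of the fit. Without that block, 0 genes were called. Depth limits the MBD-seq values, since most windows held fewer than 3 fragments.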
